A study of Drosophila melanogaster with 4 samples.

Results

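The genes described here encode proteins of the exon junction complex (EJC) and of nonsense-mediated mRNA decay (NMD), and the values describe how much of each gene's mRNA was recovered in one RNA immunoprecipitation (IP) against another. The list held 9 genes: tsu, mago and btz of the EJC, and Upf1, Upf2, Upf3, Smg1, Smg5 and Smg6 of NMD. A gene was included where a probe carried its symbol, and no other, in GEO's annotation of the array. This gave 7 probes for 6 of the 9 genes, among 15744 probes and 12236 named genes in all. Upf3 had 2 probes and tsu, btz, Upf1, Upf2 and Smg6 had 1 each, while mago, Smg1 and Smg5 were not analysed here.

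The EJC is placed on mRNA by the spliceosome, just upstream of the junctions between exons, and travels with the mRNA to the cytoplasm. Its core is built from the RNA helicase eIF4AIII, the heterodimer of Tsu (Y14) and Mago, and Btz (Barentsz), and in flies it is known for the localisation of oskar mRNA and for the splicing of transcripts with long introns, among them that of the MAP kinase gene in the eye. NMD removes transcripts with premature stop codons: the helicase Upf1 is recruited at a terminating ribosome, Upf2 and Upf3 join it, the kinase Smg1 phosphorylates it, Smg5 binds the phosphorylated protein and Smg6 cuts the RNA. In human cells the EJC and the SR protein SRSF1, the counterpart of dASF/SF2, promote NMD, whereas NMD in flies runs largely without the EJC.

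RNA came from Drosophila melanogaster larvae of the third instar in which GMR, a driver active in the developing eye, expressed GFP-dASF/SF2 or, in the control, GFP-NLS, a GFP sent to the nucleus. Both kinds of larvae carried the driver and a GFP transgene, and the RNA of both was recovered with the same monoclonal anti-GFP antibody. Each extract pooled the front ends of 600 larvae, so it also held brain, fat body, muscle, salivary gland and other tissue outside the eye field, and fewer cells of a type cannot be told apart from less RNA per cell. The 4 two-colour arrays each set a dASF/SF2 IP against a GFP-NLS IP. On the Cy5 arrays the dASF/SF2 sample carried Cy5, and on the Cy3 arrays it carried Cy3. Both channels held IP RNA, so a difference in binding and one in the amount of a transcript in the extract cannot be told apart. With replicates 1 and 2 in each orientation, the arrays were taken as 2 replicates of a dye-swapped pair. The series' design text calls the arrays of replicate 1 dye swaps of each other, and the same was assumed for replicate 2 from its number.

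The values are the authors' log ratios, whose base and numerator are not stated, so they are given in log-ratio units, each array centred on its own median. The dye-swapped arrays of replicate 1 correlated at 0.236 (Pearson's r) and 0.191 (Spearman's rho) over 12847 probes, which are not independent, and those of replicate 2 at -0.0539 and -0.467. Over the 10850 probes with 1 symbol, the kind to which the members belong, Pearson r was 0.169 in replicate 1 and -0.565 in replicate 2. The dye-swapped pairs thus had opposite signs. Over the same probes, arrays of 1 orientation correlated between replicates at 0.530 (Cy5) and 0.287 (Cy3). Arrays that differed in both orientation and replicate correlated at -0.120 and -0.305. The direction could not be settled. Both readings are therefore given for the members, for SF2 and for the medians of the other groups. Most single genes outside the list are given in the turned reading only. For a turned value the sign of the Cy3 arrays was reversed: it is the comparison of the IPs if the deposited values are dye ratios, and negative then means less RNA in the dASF/SF2 IP under Cy5 over Cy3 and more under Cy3 over Cy5. For an unturned value no sign was reversed: it is the comparison of the IPs if the deposited values are already ratios of sample to sample. Nothing beyond the replicate numbers shows that the larvae were raised separately, so the tests measure the spread between these 2 pairs of arrays, and that spread may be technical. Each SD is between the 2 replicate means, so it leaves out the spread between dye orientations within a replicate.

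Across the measured genes, the endonuclease gene Smg6 and the helicase gene Upf1 lay on the negative side on all 4 turned arrays. The EJC genes tsu and btz and the NMD gene Upf2 had smaller negative turned means, with 29.4%, 29% and 32.9% of all probes lower. Upf3 behaved unlike the others, with its larger value in the unturned reading. In limma's moderated test over all 12847 probes, 0 member probes had an adjusted p under 0.05 in either reading, against a background of 0%. At an unadjusted p under 0.05, 2 of the 6 member probes measured on all 4 arrays were called on the negative side of the turned reading, where 13.6% of all probes were, and 0 on the positive side, where 9.57% were. Unturned, 0 of the 6 probes had an unadjusted p under 0.05 in limma, against 5.57% of all probes, while in the test over genes 1 of the 6 genes, Upf3, did, against 10.1% of all genes. With so many probes at that level, these counts do not set the members apart.

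Smg6, which encodes the endonuclease of NMD, had the largest turned value of the list. On the turned scale it was at -0.339 and -0.54 on the Cy5 arrays of replicates 1 and 2, and at -0.173 and -0.656 on the Cy3 arrays. The 4 values thus lay on 1 side of zero, with the smaller ones in replicate 1 of each orientation. The mean was -0.427 ± 0.242 (SD, n = 2 replicates), with a 95% interval from -0.665 to -0.189 and an adjusted p of 0.118 in limma. Among all probes, 1.13% had a lower mean. On single arrays the share of probes below Smg6 was 10.6% and 2.4% on the Cy5 arrays and 18.7% and 1.56% on the Cy3 arrays. If the logarithm has base 2 the mean is a ratio of 1.34-fold, and if it has base 10, of 2.67-fold. In the unturned reading Smg6 was at -0.0125 ± 0.0997 (limma's adjusted p = 0.977). Its mean over the Cy5 arrays was thus nearly equal and opposite to that over the Cy3 arrays. Within replicates 1 and 2 the match was looser, with unturned means of -0.083 and 0.058.

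Upf1, the helicase on which the decay machinery assembles, followed. Its turned values were -0.393 and -0.344 on the Cy5 arrays of replicates 1 and 2, and -0.009 and -0.31 on the Cy3 arrays. All were negative, but the Cy3 array of replicate 1 lay at the middle of its probes, with 47.7% of them lower, while on the other arrays 6.95% to 11.6% were lower. The mean was -0.264 ± 0.089 (SD, n = 2), with a 95% interval from -0.44 to -0.088 and an adjusted p of 0.131 in limma. Of all probes, 6.45% had a lower mean. Without the Cy5 array of replicate 1 the mean was nearer zero, at -0.168, so the size of the Upf1 value rested in part on that array. The unturned mean was -0.105 ± 0.124 (limma's adjusted p = 0.79).

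Negative values on all 4 turned arrays were found for these 2 of the 6 member probes measured on every array, and for 16.1% of all probes. With the replicate number as a block and the 4 arrays as observations, limma called 1119 of the 12847 probes. Of the 6 member probes 2 were among them, with adjusted p-values in limma of 0.0374 for Smg6 and 0.0492 for Upf1. That fit rests on an estimated correlation within a block of -0.408, which makes its standard errors smaller than those of independent arrays. With the 4 arrays taken as independent the adjusted p-values in limma were 0.124 and 0.174. Tested over genes, after averaging probes, they were 0.0732 for Smg6 and 0.0946 for Upf1, where 3 of 10353 genes (0.029%) passed, none of them a member.

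**Figure D1:**
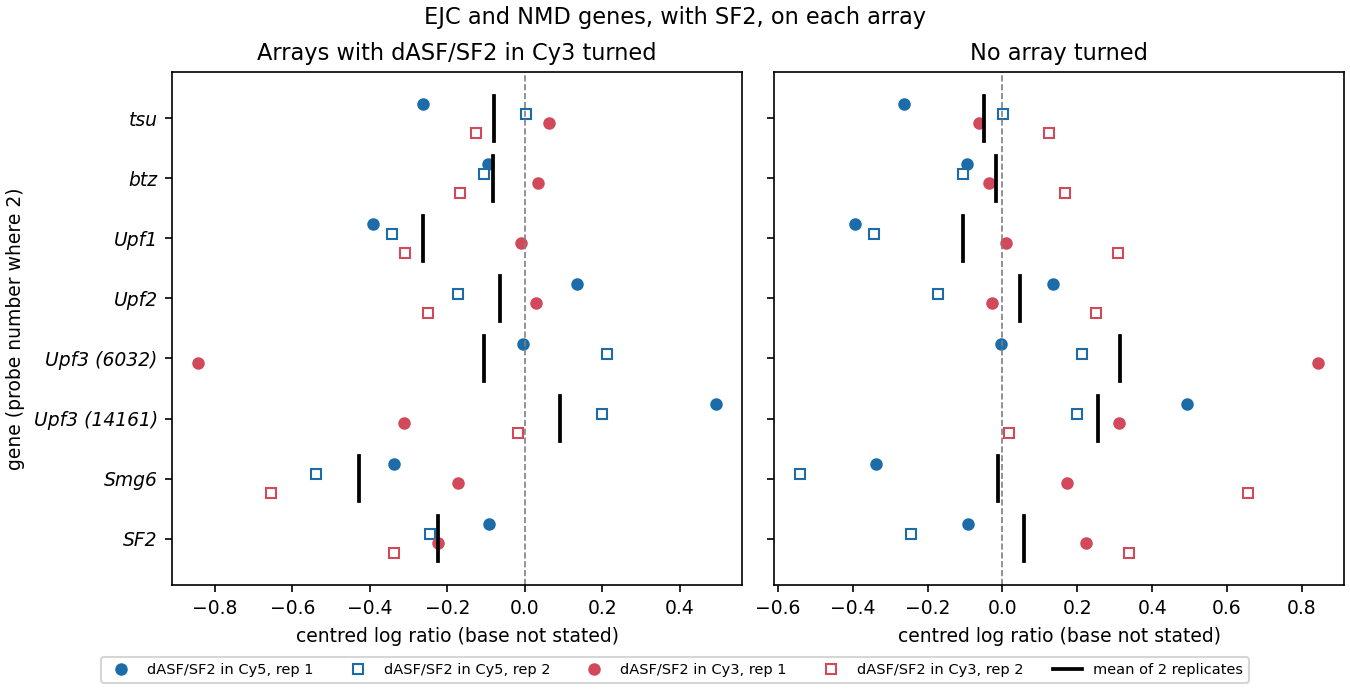
Centred log ratio (horizontal axis, base not stated) of each member probe and of SF2 on the 4 arrays, with the Cy3 arrays turned (left) and no array turned (right); points are arrays, bars the mean of 2 replicates. Smg6, Upf1 and SF2 lie left of zero on all 4 turned arrays, while Upf3 probe 14161 lies right of zero on all 4 unturned arrays.

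Upf2, the bridge between Upf1 and Upf3, did not follow Upf1. Its turned values were 0.134 and -0.172 on the Cy5 arrays of replicates 1 and 2, and 0.028 and -0.249 on the Cy3 arrays. Both arrays of replicate 1 were positive and both of replicate 2 negative, so the replicates disagreed in sign. The mean was -0.0648 ± 0.206 (SD, n = 2), with a 95% interval from -0.285 to 0.155 and an adjusted p of 0.694 in limma. The unturned mean was 0.0458 ± 0.0103 (limma's adjusted p = 0.887), with 2 of the 4 arrays negative.

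Upf3, which links the decay factors to the EJC in human cells, was measured by 2 probes. Probe 14161 had turned values of 0.493 and 0.199 on the Cy5 arrays of replicates 1 and 2, and -0.311 and -0.017 on the Cy3 arrays. The orientations were on opposite sides of zero after turning, which is to say that the values shared 1 sign as deposited. The turned mean was 0.091, the same in both replicates, with an adjusted p of 0.454 in limma. The unturned mean was 0.255 ± 0.208 (SD, n = 2), with a 95% interval from -0.0052 to 0.515 and an adjusted p of 0.752 in limma. Of all probes, 98.1% had a lower unturned mean and 7.15% were positive on all 4 unturned arrays.

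The other Upf3 probe, 6032, was measured on 3 arrays and did not enter the tests over probes with 4 values. Unturned, it was at -0.005 and 0.212 on the Cy5 arrays of replicates 1 and 2 and at 0.843 on the Cy3 array of replicate 1. On that last array, once turned, 0.21% of all probes were lower. Both Upf3 probes were thus positive on that array before turning, but they differed in size there and their turned means differed in sign (-0.106 for probe 6032). Their unturned means shared a sign, at 0.3155 for probe 6032, from 3 arrays, and 0.255 for probe 14161. Averaged over both probes, with a gene needing only 1 array per replicate, Upf3 had a turned mean of -0.0361 in place of 0.091.

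The EJC genes tsu and btz had small values. The gene tsu, which encodes the partner of Mago, was at -0.262 and 0.002 on the turned Cy5 arrays of replicates 1 and 2, and at 0.062 and -0.125 on the Cy3 arrays. Its arrays fell on both sides of zero, and the mean was -0.0808 ± 0.0272 (SD, n = 2), with a 95% interval from -0.246 to 0.0846 and an adjusted p of 0.506 in limma. The value rested on the Cy5 array of replicate 1, without which it was 0.00025.

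The gene btz, whose protein clamps the EJC core on RNA together with eIF4AIII, was at -0.094 and -0.105 on the turned Cy5 arrays of replicates 1 and 2, and at 0.035 and -0.168 on the Cy3 arrays. Only the Cy3 array of replicate 1 was positive. The mean was -0.083 ± 0.0757 (SD, n = 2), with a 95% interval from -0.256 to 0.0898 and an adjusted p of 0.512 in limma. In the unturned reading tsu was at -0.0493 and btz at -0.0165, with adjusted p-values of 0.903 and 0.963 in limma. The turned intervals of both genes include zero, and their lower ends lie near the mean of Upf1.

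In order of the turned mean the probes ran Smg6, Upf1, btz, tsu, Upf2 and Upf3 (probe 14161). The replicate means of Smg6 and Upf1 overlapped, as did those of btz and tsu and those of tsu and Upf2. Those of Upf1 and btz did not overlap, nor did those of Upf2 and Upf3, although the single arrays did in each case. For Upf2 and Upf3 this rested on 0.081 against 0.091, the latter being the mean of Upf3 in both replicates. How often pairs of probes fail to overlap was not counted, so these gaps do not set the members apart. Of the 6 genes, 5 had a negative turned mean, and their median was -0.0819, against 49.7% negative and a median of 0.001 over all 10353 genes. The 4 NMD genes had a median of -0.164 and the EJC pair -0.0819. Unturned, 4 of the 6 genes were negative, against 44.4% of all genes, and the median was -0.0145.

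**Figure D2:**
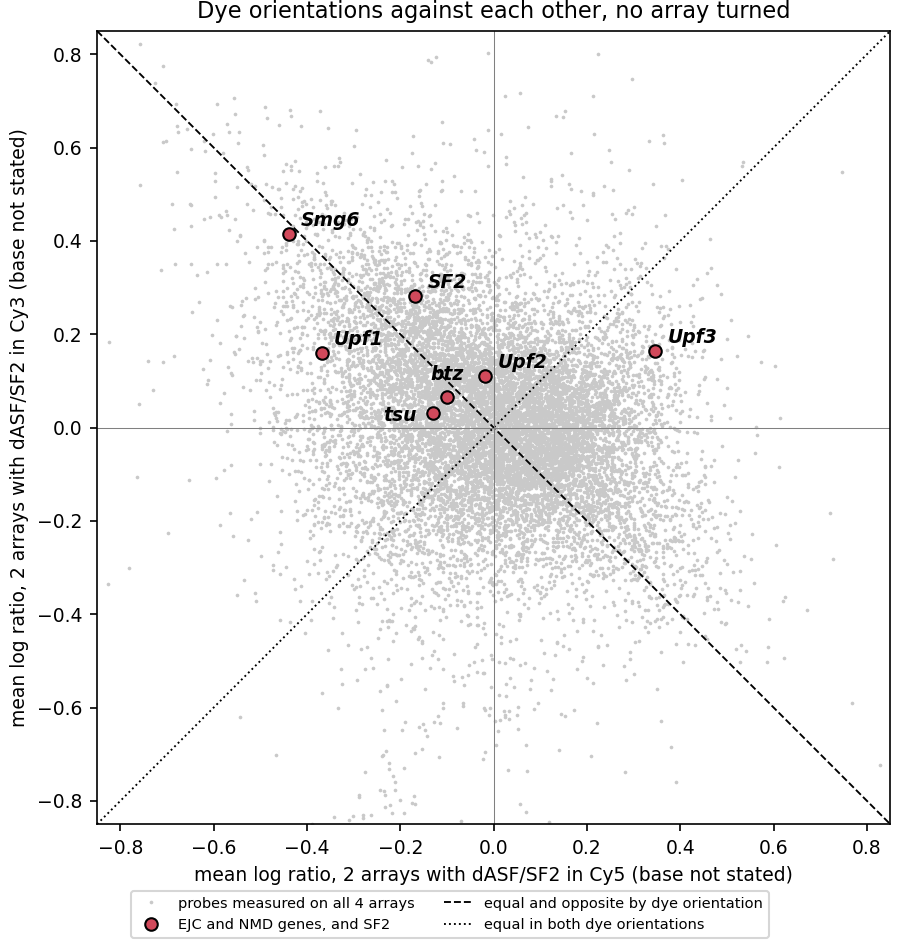
Mean log ratio (base not stated) over the Cy5 arrays (horizontal) against that over the Cy3 arrays (vertical), with no array turned, for probes measured on all 4 arrays (grey; 192 lie outside the axes), the member probes and SF2 (red). Smg6 sits beside the dashed line of equal and opposite values. Upf1, SF2, btz, tsu and Upf2 lie in the same quadrant as Smg6, and Upf3 sits in the quadrant where both orientations are positive.

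SF2, the gene of the tagged protein, lay on the same side as Smg6 and Upf1. It was at -0.092 and -0.245 on the turned Cy5 arrays of replicates 1 and 2 and at -0.224 and -0.339 on the Cy3 arrays. The mean was -0.225 ± 0.0948, and limma gave an adjusted p of 0.158. Unturned, SF2 was at 0.0565 ± 0.0134, with an adjusted p of 0.857 in limma. The profiles most like that of Smg6, by Euclidean distance over the 4 turned values among all probes with 1 symbol, belonged to salr, a zinc finger transcription factor gene (distance 0.0341), CG10565 (0.0861) and eIF3a, a translation initiation factor gene (0.0985). Their turned means were -0.418, -0.409 and -0.415.

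Other genes around the EJC and mRNA decay were taken from a list of 61 symbols, of which 48 had a value on all 4 arrays. Of these 48 genes, 33 (68.8%) had a negative turned mean and 15 a positive one, with a median of -0.106. Over all genes 49.7% were negative, and the median was 0.001. In limma 0 passed an adjusted p of 0.05. At an unadjusted p under 0.05, 18 were negative (37.5%) and 3 positive, against 15% and 9.16% of all genes. The 3 positive genes were Pym, ZC3H3 and LSm7, the last of which was named after its value was seen. Negative values on all 4 turned arrays were found for 15 of them (31.2%), against 16.5% of all genes. Unturned, 26 of the 48 were negative, against 44.4% of all genes, and the median was -0.0148. In limma 6 had an unadjusted p under 0.05 unturned, against 10.1% of all genes. The unturned medians were -0.02 for EJC partners, 0.0365 for mRNA export, 0.0451 for cap binding and 0.00513 for translation termination. They were 0.0383 for decapping and decay, -0.0794 for the exosome and its cofactors and -0.0653 for known targets.

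Among partners of the EJC, 6 of 7 genes were negative, against 49.7% of all genes. The core helicase eIF4AIII, which the annotation lists as CG7483, was near zero at -0.0245 ± 0.0403 (SD, n = 2). Acn, the fly Acinus, was at -0.399 ± 0.265, and its 2 probes were at -0.414 and -0.383, the first of them positive on the Cy3 array of replicate 1. RnpS1, a partner of Acinus in EJC-dependent splicing, was at -0.175 ± 0.0092, with single turned arrays from -0.271 to -0.066. The gene ncm, the fly homolog of the splicing factor that brings eIF4AIII to the spliceosome, was at -0.307 ± 0.111. It was positive (0.021) on the turned Cy3 array of replicate 1.

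Pym, whose protein takes the EJC apart, was the 1 gene of this group on the positive side. Its turned values were 0.413 and 0.443 on the Cy5 arrays of replicates 1 and 2, and 0.084 and 0.328 on the Cy3 arrays. All 4 were positive, at 0.317 ± 0.0969 on average (SD, n = 2), and limma over genes gave an adjusted p of 0.0766. Unturned, Pym was at 0.111, with an unadjusted p of 0.179 in limma over genes. Positive values on all 4 turned arrays were found for 13% of all genes.

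Both genes of translation termination, the step at which Upf1 acts, were negative on all 4 turned arrays. The release factor genes eRF1 and eRF3 were at -0.369 ± 0.0368 and -0.386 ± 0.159 (SD, n = 2), with adjusted p-values of 0.0689 and 0.0701 in limma over genes. Unturned they had opposite signs, -0.101 for eRF1 and 0.111 for eRF3, with unadjusted p-values of 0.246 and 0.168 in limma over genes. For eRF3 the values were -0.156 and -0.394 on the Cy5 arrays and -0.392 and -0.603 on the Cy3 arrays, so it differed from Smg6 in having no weak array among the Cy3 ones.

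Genes of decapping and of decay from the ends were mixed, with 9 of 14 negative, against 49.7% of all genes, and a median of -0.159. The largest value was that of Rat1, the nuclear 5′ to 3′ exonuclease, at -0.501 ± 0.199 (limma's adjusted p over genes = 0.0681), with turned values of -0.557 and -0.553 on the Cy5 arrays and -0.162 and -0.73 on the Cy3 arrays. Rga and Not3, subunits of the deadenylase complex, were at -0.28 ± 0.082 and -0.263 ± 0.0958. Of the exosome and its cofactors, 7 of 12 were negative, against 49.7% of all genes. Among them were the helicase genes tst at -0.334 ± 0.169 and Mtr4 at -0.242 ± 0.105 and the nuclease gene Rrp6 at -0.239 ± 0.023. The turned values of Rrp6 were -0.458 and -0.166 on the Cy5 arrays and 0.013 and -0.344 on the Cy3 arrays.

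Genes of mRNA export lay closer to zero, with 6 of 9 negative, against 49.7% of all genes, and a median of -0.075. The zinc finger gene ZC3H3 was at 0.293 ± 0.121 and thoc6, of the THO complex, at -0.165 ± 0.1. The export adaptor gene Ref1 had 2 probes that disagreed in sign, at 0.0883 and -0.307. The subunits of the nuclear cap-binding complex were on opposite sides, with Cbp20 at 0.145 ± 0.0944 and Cbp80 at -0.059 ± 0.0757.

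The transcript of Gadd45, a known target of NMD in flies, lay on the same side as Smg6 and Upf1. Its turned values were -0.528 and -0.334 on the Cy5 arrays of replicates 1 and 2, and -0.155 and -0.369 on the Cy3 arrays. All 4 were negative, at -0.347 ± 0.0071 on average (SD, n = 2), and limma over genes gave an adjusted p of 0.0689. Unturned, Gadd45 was at -0.0845, with an unadjusted p of 0.325 in limma over genes. The transcript of piwi, whose splicing depends on the EJC in flies, was at -0.0545 ± 0.239 with 2 arrays on each side.

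**Figure D3:**
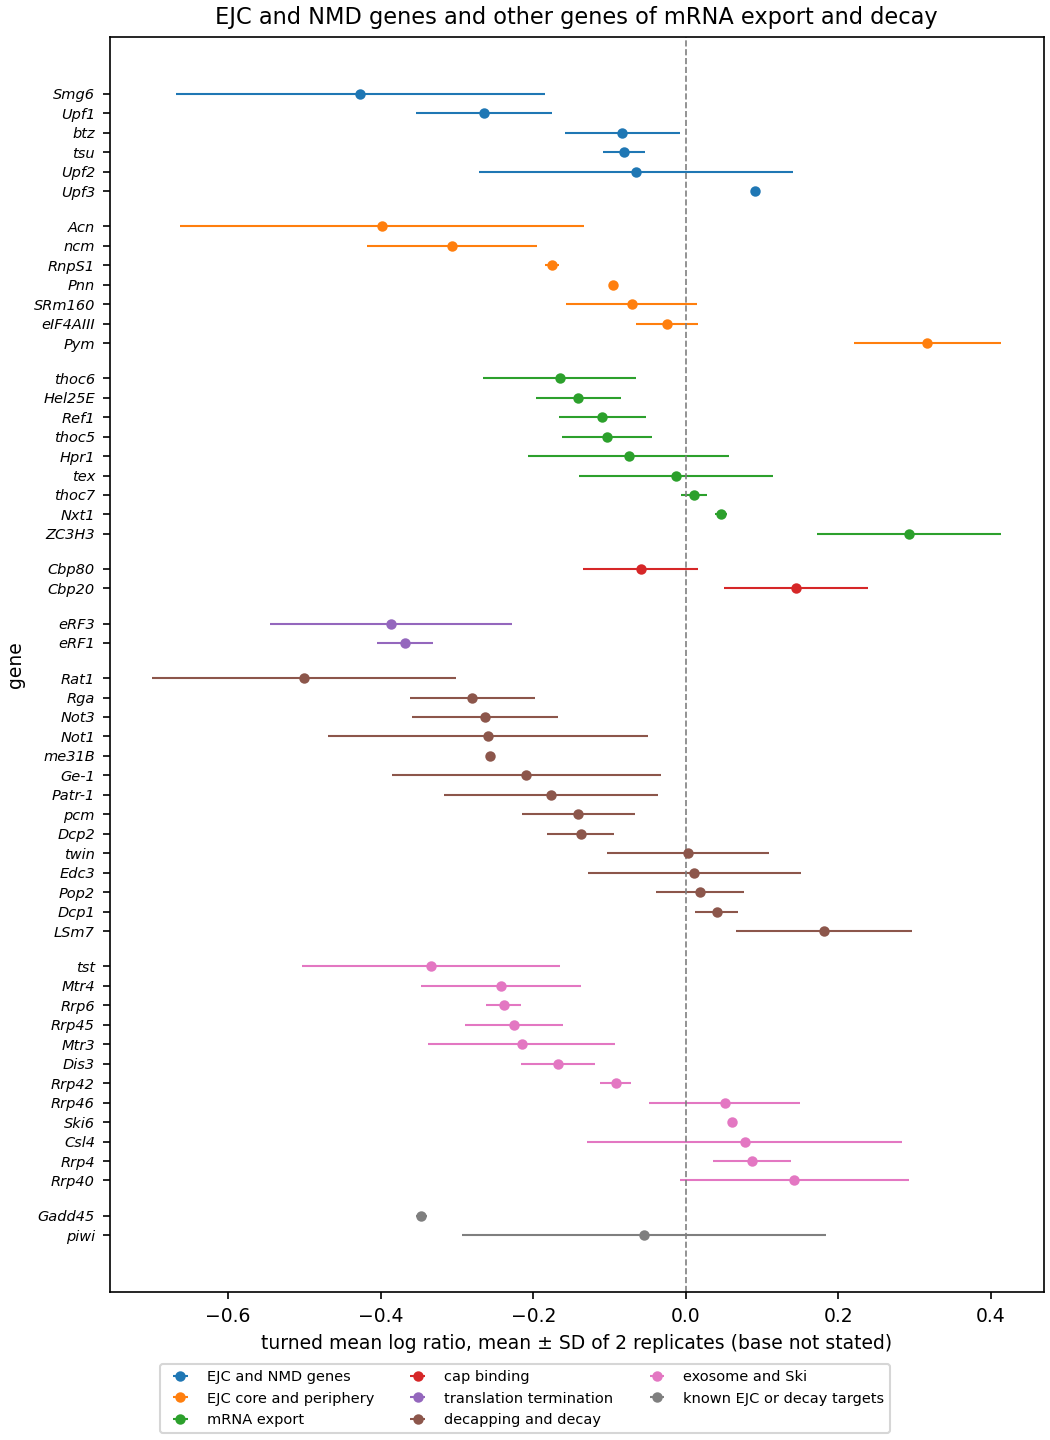
Turned mean log ratio (horizontal axis, base not stated) of the member probes and of 48 other genes, grouped by role; points are means and bars the SD of 2 replicates. The negative side holds 5 of the 6 members and 33 of the 48 other genes, among them Smg6, Upf1, eRF1, eRF3, Rat1 and Gadd45. Pym, ZC3H3 and LSm7 are among the 15 other genes on the positive side.

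Markers of tissues in the anterior end lay on both sides of zero, where 49.7% of all genes had a negative turned mean. None of these markers passed an adjusted p of 0.05 in limma over genes. On the negative side, with Smg6 and Upf1, were 3 of 3 measured muscle markers (median turned value -0.344, from -0.348 to -0.296) and 3 of 3 fat body markers (-0.186, from -0.353 to -0.143). Of the eye markers 3 of 5 were negative (median -0.0245, from -0.46 to 0.098) and of the salivary gland markers 3 of 4 (-0.0533, from -0.271 to 0.516). On the positive side were 3 of 4 glial markers (0.302, from -0.0376 to 0.391), and haemocyte markers were split, 2 of 4 (0.127, from -0.094 to 0.349). The unturned medians were 0.0428 for muscle, -0.0218 for fat body, 0.046 for eye, -0.101 for salivary gland, -0.0111 for glia and 0.056 for haemocytes. These are ratios and give no level of any marker, and the part of tissue makeup in the values of Smg6, Upf1 and the other genes was not tested. The SD of all tested probes was 0.345 on the Cy3 array of replicate 2, where Smg6 had its largest value, and 0.232 to 0.26 on the other 3. With the arrays scaled to 1 spread Smg6 was at -0.43 and Upf1 at -0.255, with adjusted p-values of 0.136 and 0.164 in limma.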

How the data were processed

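Each of 4 two-colour arrays compared RNA recovered with GFP-dASF/SF2 and with GFP-NLS. The values were the authors' deposited score per probe and array, a signed log ratio with column medians from 0 to 0.013. The sources used here do not give its base, its numerator, the background correction or the software. A value of -10000 was read as missing, and no spot intensities were used. Arrays were centred on their medians, the dye-swapped arrays of a replicate were averaged, since the design text calls those of replicate 1 dye swaps and those of replicate 2 share a number, and the mean of 2 replicates was tested against 0 with limma 3.58.1 (lmFit and eBayes, R 4.3.3) over the 12847 probes with 4 values, adjusted by Benjamini-Hochberg and called at 0.05. Genes were tested on the mean of their probes. Probes were named by GEO's platform annotation (13147 with 1 symbol, 99 with several, 2498 with none), and aliases of the other decay genes through RefSeq. No sequence or coordinates are given, since no genome or sequence table was used.

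The members, the lists and the tests were chosen with earlier results of these data known. All 9 members were to be named, with up to 3 genes of the largest absolute turned mean per group of the wider list, eIF4AIII, Pym, RnpS1, Acn, SF2, and the 3 probes nearest to the leading member. The alternatives were scaling, no centring, missing values, exact zeros, leaving out each array, a replicate block and independent arrays. The number of arrays limits the precision. Figures used matplotlib 3.10.9 in Python 3.11.15.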

Additional observations from a re-analysis of the deposited data

Results flagged for a closer look

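Upf3 probe 14161 was singled out because, with the Cy3 arrays turned, both Cy5 arrays moved one way (0.493 and 0.199) and both Cy3 arrays the other (-0.311 and -0.017). Its unturned mean was 0.255, positive on all 4 arrays. Limma gave it an adjusted p of 0.752. Of all probes, 7.15% were positive on all 4 unturned arrays. The groups held 2 arrays each, so single arrays were not screened as outliers.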

How the results depend on the processing

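With the arrays centred and turned, limma called 0 probes (2980 at an unadjusted p under 0.05). It called 3 with exact zeros read as missing and 1119 with the replicate block, and from 0 to 184 when 1 array was left out. Over genes it called 3, and 0 with scaling, 37 without centring, 0 with 1 array per replicate, 59 with zeros as missing, 1364 with the replicate block, 54 with independent arrays and from 0 to 418 without 1 array. Unturned, 0 probes were called (716 unadjusted), also under each alternative run, and the dye orientation term called 0 (2541 unadjusted), with or without scaling. The causes of these shifts were not tested. With the replicate block the estimated correlation was negative, which makes the standard errors smaller. The median of the wider list of decay genes was -0.114 with scaling, -0.102 without centring, -0.103 with zeros as missing and between -0.124 and -0.102 without 1 array. The median of the members stayed between -0.139 and -0.0581 without 1 array.

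Smg6 and Upf1 kept a negative turned mean under all 10 alternatives run, from -0.469 to -0.386 and from -0.36 to -0.168, with adjusted p-values from 0.0374 to 0.402 and from 0.0492 to 0.615 in limma. Over genes, the adjusted p of Smg6 in limma was 0.0349 and 0.0358 without the Cy3 array of replicate 1 or 2, and 0.0195 with the replicate block, and it reached 0.228 without the Cy5 array of replicate 2. That of Upf1 was 0.0339 with the replicate block. The replicate block changed no other member's call. With 1 array left out, the turned mean of tsu ran from -0.162 to 0.00025 and that of Upf3 probe 14161 from -0.11 to 0.292, and both signs reversed without the Cy5 array of replicate 1. Upf3 was at -0.0361 over genes with 1 array per replicate. Unturned, Upf2 was at 0.0458, a sign opposed to its turned one. The unturned means changed sign when 1 array was left out for Smg6 (-0.312 to 0.287), Upf1 (-0.268 to 0.059), Upf2 (-0.0595 to 0.151), btz (-0.0848 to 0.0518) and tsu (-0.0993 to 0.00075), and with scaling Smg6 was at 0.00651.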
